A study of Mus musculus with 8 samples.

Results

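Cytosolic ribosomal protein genes were measured in cultured mouse hepatic stellate cells from IL15Ra-knockout and control mice, which differ in the interleukin-15 receptor alpha chain. The set holds every probe whose platform gene symbol begins with Rpl or Rps and a digit, together with those of Rplp0, Rplp1, Rplp2 and Rpsa, and leaves out the S6 kinase genes and symbols marked as pseudogenes. It comes to 84 probes of 66 genes, among 25697 probes and 16593 gene symbols on the array. Of the 66 symbols, 37 belong to the large subunit, 24 to the small subunit and 3 to the acidic stalk. The other 2, Rps19bp1 and Rps23rg1, meet the spelling rule but name no ribosomal protein: the former encodes a nucleolar partner of Rps19 and the latter is a retrogene derived from Rps23.

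Ribosomal proteins wrap the ribosomal RNAs of the small subunit, which decodes the messenger RNA, and of the large subunit, which joins amino acids. Their genes are transcribed at high rates in nearly all cells, and most of their messenger RNAs begin with a stretch of pyrimidines, the 5′ terminal oligopyrimidine (TOP) motif, through which mTOR signalling sets their translation. Several are used as reference genes in quantitative PCR because their levels tend to be steady. Stellate cells are the vitamin A-storing pericytes of the liver and become matrix-secreting myofibroblasts after injury.

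The cells came from 6-week-old mice on a B6/129 background, either IL15Ra-knockout (4 samples) or wild type, labelled control (4 samples). The livers were perfused with pronase and collagenase, stellate cells were taken from a Percoll gradient and kept in medium with 20% serum, and RNA was extracted at passage 0. No other allele or treatment is named, and separate or pooled animals are not told apart for the 4 samples of each genotype. The p-values therefore rest on a spread between samples that could be partly technical. Each sample was hybridised to 1 Illumina MouseRef-8 v2.0 array, and the comparison asks whether loss of the receptor chain altered expression in these cells.

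The labels were first set against the data. The 4 probes of Il15ra were above background on 0 of the 8 arrays, so the targeted gene checks no label. All mice are labelled female, yet the Y-linked genes Eif2s3y, Kdm5d and Uty were above background on all 8 arrays and Xist on none. Of 14 stellate cell markers, 12 passed the detection filter, with Acta2 near the top of the scale, while Lrat, the enzyme that esterifies retinol, was above background on no array. All 11 macrophage and Kupffer cell markers with a probe also passed, and Adgre1, Fcer1g and Lyz2 were among the bright ones. The arrays themselves differed. Between 6760 and 10516 of all probes were above background per array, and the 3 arrays with the fewest, knockout 1, knockout 4 and control 3, stood apart from the other 5 in the results below.

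Promoter windows show how the annotated starts of these genes differ. RefSeq (GRCm38.p6) lists a window for 57 of the 66 genes, and for each the annotated start first listed was used, with 60 bases around it printed here, 45 before and 15 from it on. The genes were chosen because the results turn on them. Rpl13a, Rplp0 and Rps6 are reference genes. Rps16 and Rpl39l had wide differences between knockout and control, and Rps3 had the widest spread within groups. Rpl38 and Rps24 have probes far apart in level. Capitals mark a TOP-like start or an ETS motif.
Rpl13a, chr7:45128731-45128790, minus strand: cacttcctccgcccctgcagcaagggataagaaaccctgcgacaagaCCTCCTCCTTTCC
Rpl38, chr11:114668535-114668594, plus strand: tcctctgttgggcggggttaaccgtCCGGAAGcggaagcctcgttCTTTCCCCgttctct
Rps24, chr14:24490633-24490692, plus strand: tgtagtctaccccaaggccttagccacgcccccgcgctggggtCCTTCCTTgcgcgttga
Rps6, chr4:86857353-86857412, minus strand: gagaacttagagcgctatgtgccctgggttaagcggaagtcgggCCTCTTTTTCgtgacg
Rplp0, chr5:115559422-115559481, plus strand: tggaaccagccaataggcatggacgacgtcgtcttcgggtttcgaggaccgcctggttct
Rpl39l, chr16:10170183-10170242, plus strand: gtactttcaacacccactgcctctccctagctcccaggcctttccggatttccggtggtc
Rps16, chr7:28350644-28350703, plus strand: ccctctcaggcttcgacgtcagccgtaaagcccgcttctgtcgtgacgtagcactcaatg
Rps3, chr7:99483695-99483754, minus strand: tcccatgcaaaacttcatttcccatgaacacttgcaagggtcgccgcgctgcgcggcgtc
The upper 4 hold a TOP-like start, a C followed by at least 4 pyrimidines that begins within 5 bases of the annotated start on the sense strand, and the lower 4 have none at the start listed first.

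Over the 57 windows of 250 bases before to 50 after the start, 26 genes (45.6%) had a TOP-like start, against 18.5% of the 27025 genes with a window. Only the start listed first was read, so a gene counted as without one may still have it at another start. The ETS motif CCGGAAG, read on both strands, was in 21 windows (36.8% against 9.12%), and the YY1 motif AAGATGG in 9 (15.8% against 6.48%). The E-box CACGTG was in 5 (8.77% against 7.24%) and the NRF1 core GCATGCG in 4 (7.02% against 3.64%), each read on both strands. The TATA box TATAAA, sought on the sense strand 40 to 20 bases before the start, was in 1, that of Rpl22l1 (1.75% against 2.22%). The ETS motif ends in the AAG with which the YY1 motif begins, so the 2 can overlap, and a TOP-like start can share bases with either. These are matches of letters, not measured binding. Among the 51 measured genes with a window, the median knockout minus control log2 difference was -0.06 for the 22 with a TOP-like start and -0.34 for the 29 without, a description given with no test. The same 2 sets of genes also differed in spread, with a median within-group SD of 0.54 against 1.04. On the 3 arrays with the fewest detected probes they lay lower than on the other 5 by different amounts, at a median log2 difference of -0.43 against -1.77. The part of those arrays in the gap between the sets was not tested.

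Most ribosomal protein genes were well measured. After background correction and quantile normalisation, levels are log2 values on 1 common scale per array, with a top of 14.24, and levels of different probes are not amounts of RNA that can be set against each other. A probe was kept when its detection p was under 0.05 on at least 4 of the 8 arrays, which left 71 of the 84 probes and 59 of the 66 genes. Of these probes, 57 were above background on all 8 arrays. The brightest were Rps20 (mean 14.09), Rpl37 (14.08), Rpl41 (14.04), Rpl3 (14.04) and Rpl38 (13.98), all within 0.3 of the top of the scale. The dimmest kept were Rpsa (6.25), the laminin receptor precursor that is also a small subunit protein, Rpl39l (6.33), Rpl21 (6.39), Rpl3l (6.46) and Rps15a (6.60).

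The other 7 genes did not pass the filter, and for several of them the probe gave nothing above background although the proteins are core parts of every ribosome. Rpl6, Rpl7a, Rpl17, Rplp2, Rps23 and Rps23rg1 were above background on no array, and Rps19bp1 on 1 knockout array. The single Rps23 probe, for a protein of the decoding centre, read between 110.0 and 139.2 signal units over the 8 arrays, and the Rplp2 probe between 93.7 and 116.0. By contrast Rps20 read between 16440 and 18161 on the same arrays. Of 13 probes that were not kept, 6 belong to genes with another probe that was. The third probe of Rpl37 was above background on no array while another gave a median of 17317 signal units. Ribosomal protein genes have many near-identical processed copies in the genome, and which transcripts each probe can bind was not tested, so single probes stay uncertain in both directions.

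No ribosomal protein probe passed the test of knockout against control after adjustment. With limma and Benjamini-Hochberg adjustment over all 9433 kept probes, 0 of the 71 had an adjusted p under 0.05, against 50 of all probes (0.53%). At an unadjusted p under 0.05 there were 2, against 6.31% of all probes, and the 4 knockout and 4 control values did not overlap at 1, against 5.02%. The median log2 difference, knockout minus control, was -0.08 over the 71 probes and 0.03 over all kept probes. It was positive at 30 probes and negative at 41, and ran from -1.72 to 1.28. Taken with 1 probe per gene, the brightest, 23 of 59 genes had positive and 36 negative differences, and their median was -0.15. The 95% interval of the difference was widest for Rps3, from -4.06 to 2.89.

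**Figure D1:**
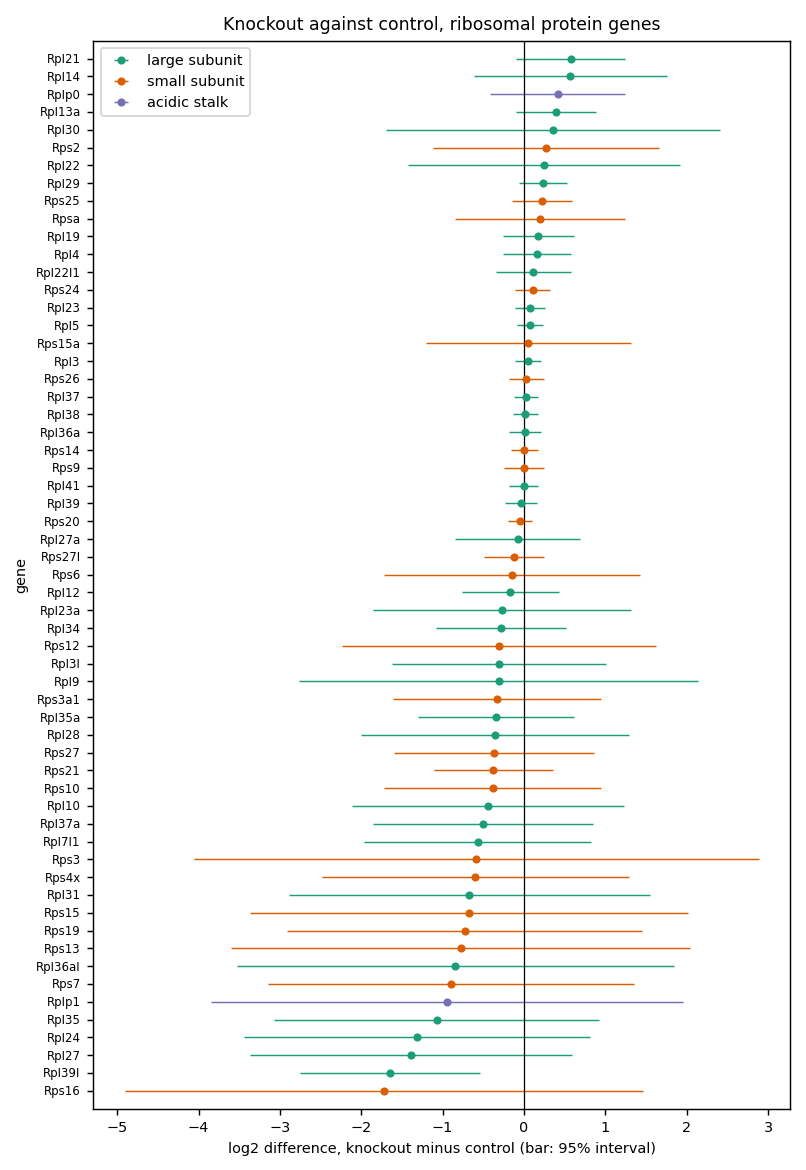
Log2 difference, knockout minus control, on the horizontal axis for each of 59 ribosomal protein genes (1 probe per gene), coloured by subunit, with 95% intervals from the limma fit of 4 against 4 arrays. All intervals except that of Rpl39l cross 0, and they are narrowest for genes near the top of the scale and widest for genes such as Rps3 and Rps16.

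Rpl39l, a paralog of Rpl39 best known from the testis, was the probe whose groups lay apart. Its log2 values were 6.38, 5.23, 4.96 and 5.45 on knockout arrays 1 to 4 and 6.60, 6.89, 8.46 and 6.66 on control arrays 1 to 4. It was above background on 1 of 4 knockout and 4 of 4 control arrays, and all control values lay above all knockout values. The control arrays alone met the filter of 4 arrays, so the probe was kept through the group where it is high. Most knockout values lie at background, so the size of the difference depends on how that floor is treated. The difference was -1.65 with a standard error of 0.49, and its adjusted p in limma was 0.343. Within the 5 arrays with more detected probes the difference was -1.63, and within the other 3 it was -2.54. In the alternative limma fits the adjusted p was 0.139 without control 3, where the difference was -1.22, and 0.993 with the replicate block. It passed the threshold with median scaling, at 0.0147. It also did with the detected probes per array in the model (0.00227) and without the 3 arrays (0.0121), both alternatives chosen after seeing the data. With the filter applied anew to those 5 arrays the probe, above background on 3 of them, was not tested. Over all alternatives its adjusted p ran from 1.09e-05 to 0.993, and its difference was -0.77 without background correction and -0.80 on the authors' normalised values.

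At the other 5 paralogs the groups overlapped. Rpl7l1, a relative of Rpl7, had a log2 difference of -0.57 (SE 0.62), and Rpl36al, nearly identical in protein to Rpl36a, one of -0.85 (SE 1.19). Rpl22l1, the relative of the RNA-binding protein Rpl22, differed by 0.12 (SE 0.20), and Rpl3l, which stands in for Rpl3 in skeletal and heart muscle, by -0.31 (SE 0.58). Rps27l, a paralog of Rps27 that p53 induces, averaged 13.67 ± 0.32 on the knockout arrays and 13.79 ± 0.18 in the controls (SD, n = 4 each). Of the 6 paralogs measured, 1 had a positive and 5 a negative difference, and 0 passed the test.

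The acidic stalk binds translation factors to the large subunit, with Rplp0 at its base carrying pairs of Rplp1 and Rplp2. The brighter probe of Rplp0 read 10.11, 9.12, 9.24 and 9.83 on knockout arrays 1 to 4 and 9.09, 9.09, 9.995 and 8.46 on control arrays 1 to 4. Its dimmer probe read 10.25, 9.34, 9.49 and 10.06 against 8.38, 8.35, 9.504 and 7.78. On the dimmer probe controls 1, 2 and 4 lay below all knockout values, while control 3 lay among them, so the groups overlapped. The dimmer probe differed by 1.28 (SE 0.39, 2.43-fold, limma adjusted p = 0.380) and the brighter by 0.41 (SE 0.37, adjusted p = 0.913). Without control 3 the dimmer probe passed, with an adjusted p of 0.0428, and with the covariate of detected probes it did with 0.00298, whereas the adjusted p was 0.0666 without the 3 arrays and 0.993 with the replicate block. Rplp1 read 10.23, 14.12, 13.57 and 10.22 in the knockout and 14.12, 14.12, 9.43 and 14.24 in the control arrays, where 3 arrays fell 3 to 5 units under the other 5, in both groups, and its difference was -0.94 (SE 1.29).

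The 5 reference genes had a median within-group SD of 0.31, against 0.83 over the 59 genes. The SD was 1.14 for Rps6, 0.56 for Rplp0, 0.31 for Rpl13a, 0.30 for Rpl19 and 0.22 for Rpl4. Rpl13a, a large subunit protein that also takes part in a translation-silencing complex in human cells, read 10.85, 11.55, 11.33 and 11.04 in the knockout and 10.85, 10.94, 10.36 and 11.06 in the control arrays. The groups overlapped, with a difference of 0.39 (SE 0.22). It passed with the covariate, at 0.42 and an adjusted p of 0.0487, and its lowest and highest difference over all alternatives were 0.24 and 0.50, with adjusted p-values from 0.000816 to 0.9999. Rpl19 differed by 0.18 (SE 0.19) and Rpl4 by 0.16 (SE 0.18) on its brighter probe. Rps6, the substrate of S6 kinase, differed by -0.15 (SE 0.70) and was above background on 3 of 4 control arrays. None of the 5 passed in the main fit, which used all 8 arrays without array weights or a covariate.

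Rpl5 and Rpl23, which bind the p53 regulator Mdm2 when ribosome assembly is disturbed, had narrow ranges on their bright probes. Rpl5, a partner of the 5S ribosomal RNA, read between 13.83 and 13.99 on all 8 arrays, with a difference of 0.07 (SE 0.07). The brightest Rpl23 probe read between 13.71 and 13.98, with a difference of 0.08 (SE 0.08). Both lie near the top of the scale, at 14.24. Rpl23 has 4 kept probes, of which the other bright one differed by 0.00 and the dimmer pair by -0.29 (SE 0.32) and 0.34 (SE 0.47), the latter with values from 8.27 to 10.10.

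Over the large subunit, 42 kept probes had a median difference of -0.01, with 20 positive and 22 negative. The 26 kept small subunit probes had a median of -0.32, with 8 positive and 18 negative, and 0 of 26 had an unadjusted p under 0.05. Their median was -0.15 within the 5 arrays with more detected probes and 0.54 within the other 3. The sign was the same in both for 9 of the 26. For the large subunit probes those medians were 0.03 and 0.12, with the same sign for 19 of the 42. The positive end held Rpl21 (0.57, SE 0.29), Rpl14 (0.57, SE 0.53), Rplp0, Rpl13a, Rpl30 (0.35, SE 0.91) and Rps2 (0.27, SE 0.61). The negative end held Rps16 (-1.72, SE 1.41), Rpl39l, Rpl27 (-1.39, SE 0.88), Rpl24 (-1.32, SE 0.94), Rpl35 (-1.07, SE 0.88) and Rplp1. Rps16 read 8.33, 12.30, 10.64 and 7.91 on the knockout and 12.74, 12.42, 7.39 and 13.51 on the control arrays, so that the 3 low values came from both groups. Of the 6 lowest, 5 had negative differences within the 5 arrays with more detected probes and positive ones within the other 3, where Rps16 gave -1.42 and 0.73 and Rpl27 gave -1.78 and 0.47. Rpl39l alone among them was negative in both.

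Those splits of the arrays share no array, and each compares 2 knockout with 3 control or 2 knockout with 1 control array. The median difference of the 71 probes was -0.02 in the 5 arrays and 0.18 in the 3, against 0.04 and 0.04 over all kept probes. The sign was the same in both for 29 of 71 member probes and for 5252 of 9433 probes overall. In the 5 arrays the groups did not overlap at 16 member probes (22.5%, against 30.2% of all kept probes). Without the 3 arrays the test called 1 member probe, Rpl39l, and 169 of all 9433.

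Arrays of the same group differed widely at many of these genes and hardly at others. The within-group SD of a member probe was 0.75 at the median, against 0.53 over all kept probes, and it ran from 0.03 to 2.67. An SD over 1 was seen at 27 probes (38.0%, against 10.9% of all), and one under 0.2 at 16 (22.5%, against 9.62%). These shares are descriptions of the set, with no test. The first principal component of the variation between arrays held 83.4% of the variance of the member probes and 78.2% of that of all kept probes.

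Rps3, a small subunit protein that is also a DNA repair nuclease, varied most, with a within-group SD of 2.67. Its signal before normalisation was 256.8, 4670, 2332 and 293.9 on knockout arrays 1 to 4 and 3850, 3423, 175.8 and 7999 on control arrays 1 to 4. The 3 low readings were those of knockout 1, knockout 4 and control 3, and on control 3 the probe was not above background. After normalisation the values were 8.30, 12.31, 11.20 and 8.05 against 11.84, 11.72, 5.91 and 12.75. Rps13, a small subunit protein, read 8.95, 12.29, 11.28 and 8.63 against 12.14, 12.17, 7.33 and 12.61, the same split of arrays. Rps16, Rplp1 and Rpl36al were the other members with the widest SD, at 2.45, 2.24 and 2.06, and at each of them the same 3 arrays lay below the other 5.

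Rpl37, Rps20, Rpl38, Rpl5 and Rpl3 varied least, with SDs of 0.03, 0.04, 0.04, 0.05 and 0.06. Rps20 read 14.11, 14.08, 14.09 and 13.99 on the knockout and 14.10, 14.11, 14.14 and 14.12 on the control arrays. Its signal before normalisation was likewise even, with a highest reading 1.10 times the lowest. These steady members are bright ones, with means from 13.92 for Rpl5 to 14.09 for Rps20 under a top of 14.24. Whether readings so near the top still follow the amount of RNA was not tested, before normalisation or after it. The SDs are those of the brightest probe of each gene. The dim probe of Rpl38, which was also kept, read between 6.43 and 10.59 over the 8 arrays. The 22 member probes with a mean over 13 had a median SD of 0.12, close to the 0.15 of all 204 kept probes that bright, while the 49 at 13 or less had a median SD of 1.00.

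**Figure D2:**
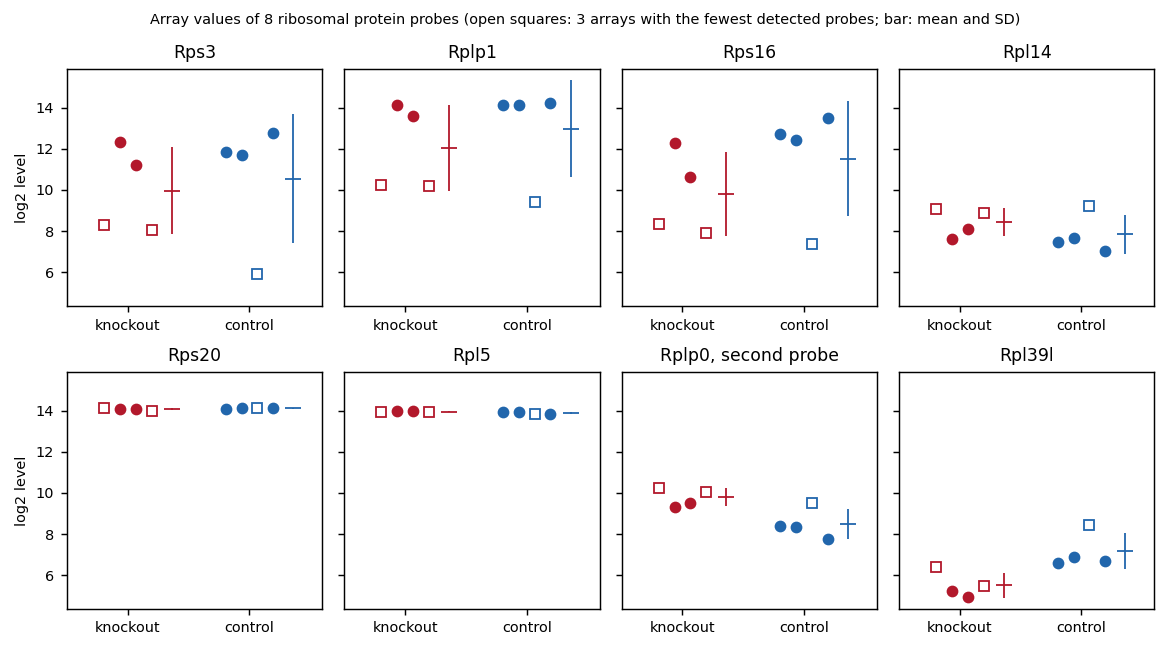
Log2 levels of 8 ribosomal protein probes on each array (points), by group, with the mean and SD of the 4 arrays beside them. Open squares mark knockout 1, knockout 4 and control 3, which lie lowest for Rps3, Rplp1 and Rps16, highest in their group for Rpl14 and level with the rest for Rps20 and Rpl5, while the groups of Rpl39l do not overlap.

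Taken over the 71 probes, 29 (40.8%) lay lower by more than 1 log2 unit on the mean of the 3 arrays with the fewest detected probes than on the other 5, against 23.2% of all kept probes. Only 8 (11.3%) lay higher by as much, against 16.4%, and 17 (23.9%) were within 0.25, against 14.1%. The values of the 3 and the 5 arrays did not overlap at 43 member probes, lower on the 3 at 33 (46.5%, against 30.2%) and higher at 10 (14.1%, against 36.1%). The split was made on the number of detected probes, which the members contribute to, and is described with no test. Among small subunit probes the median difference was -1.11 and among large subunit probes -0.40. Members that lay higher on the 3 arrays included Rpl14 (1.49), Rpl3l (1.36), Rps15a (1.21), Rpsa (1.21) and Rplp0 (0.98).

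**Figure D3:**
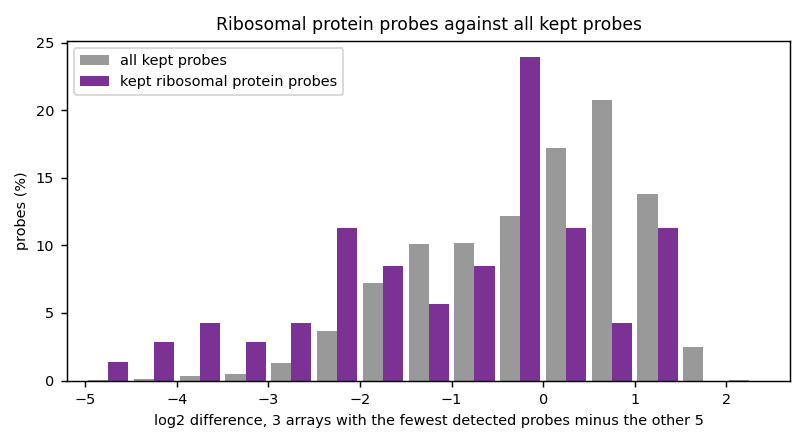
Share of probes (%) by the log2 difference between the mean of the 3 arrays with the fewest detected probes and the mean of the other 5, in bins of 0.5, for all 9433 kept probes (grey) and the 71 ribosomal protein probes (purple). The ribosomal protein probes reach further to the left, with 40.8% below -1 against 23.2%, and peak just under 0.

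Array by array, 29 of the 59 genes lay more than 1 unit under their own median on control 3, 27 on knockout 1 and 20 on knockout 4, against 0 to 2 on each of the other 5. Control 3 held the lowest of the 8 values for 31 genes and control 4 the highest for 22. Control 4 stood out upward for a further group, with Rps7 at 11.34 against 5.97 to 8.66 on the other 7 arrays, Rps6 at 9.34 against 5.79 to 7.76, and Rpl27 at 11.46 against 7.14 to 10.25. The median level of the member probes was 10.85, 12.63, 12.30 and 11.03 on knockout arrays 1 to 4 and 12.44, 12.42, 10.11 and 12.61 on control arrays 1 to 4. Over all kept probes the mean level lay between 8.28 and 8.43 on every array. Quantile normalisation was run on all probes, so the mean of the kept ones can differ between arrays. It was 8.28 to 8.37 on the 3 arrays with the fewest detected probes and 8.40 to 8.43 on the other 5.

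**Figure D4:**
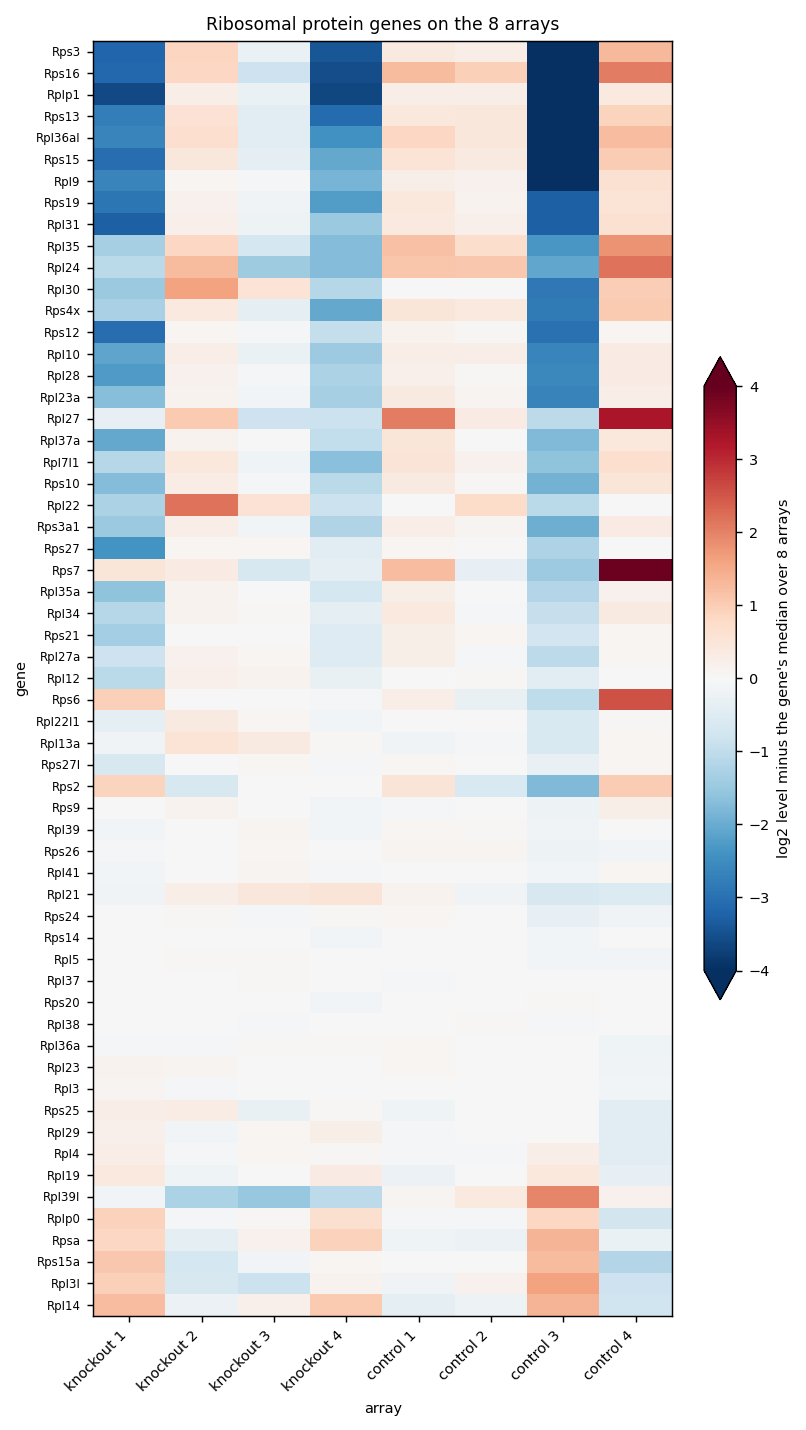
Log2 level of each of 59 ribosomal protein genes (rows) on each of the 8 arrays (columns) minus the gene's median over the arrays, with blue lower and red higher and colours ending at 4 units. Knockout 1, knockout 4 and control 3 are blue for the upper rows, pale for the bright steady genes in the lower middle and red for the lowest rows, and control 4 is red for Rps7, Rpl27 and Rps6.

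Summed signals of some marker lists differed between the 3 and the 5 arrays. That of the 11 macrophage and Kupffer cell markers ran from 59267 to 75732 on the 3 arrays and from 81228 to 105928 on the other 5, with none of the 11 at background on all arrays. The sum follows its bright genes: the median log2 difference of the 11 between the 3 and the 5 arrays was -0.04, 4 lay lower and 0 higher by over 1, and the Kupffer cell genes Clec4f, Timd4 and Marco lay higher, by 0.87, 0.74 and 0.96. The 9 sinusoidal endothelium markers summed to between 1935 and 2868 on the 3 arrays and 3632 and 6279 on the 5, with a median difference of -0.15 over the 6 kept and Kdr and Cdh5 above background on no array. The 14 stellate cell markers gave overlapping sums, from 74144 to 82065 against 66369 to 78846, with Lrat at background. The 10 hepatocyte markers, of which 6, Alb among them, were above background on no array, gave sums from 1749 to 1924 against 1601 to 1793. Those sums are mostly background. The 3 kept hepatocyte markers had a median log2 difference of 1.06 between the 3 and the 5 arrays, with 2 higher and 0 lower by over 1.

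By genotype the macrophage sum ran from 59267 to 84870 in the knockout and from 75732 to 105928 in the control arrays, and 0 of its 11 genes passed the test. Of the dendritic cell and MHC class II list, all 6 kept genes had negative differences and 3 passed as lower (against 0.53% of all probes). Ciita was above background on 0 knockout and 4 control arrays and Itgax on 1 and 3, so the filter itself favoured their negative sign. The list summed to 2537 to 3678 in the knockout and 18518 to 51571 in the control arrays, with Flt3 and Cd209a above background on no array. Of the 12 kept stellate cell markers, 2 passed, with the collagen gene Col1a2 higher in the knockout by 1.84 (limma adjusted p = 0.00478) and Reln lower, at -1.61 (adjusted p = 0.0289). The part of these cells in the ribosomal protein values was not tested. In bulk RNA fewer cells of a type and less RNA per cell cannot be told apart.

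The share of an array's summed signal that fell on the 84 member probes is untouched by normalisation between arrays. It was 2.71%, 4.12%, 3.62% and 2.87% on knockout arrays 1 to 4 and 3.91%, 3.86%, 2.40% and 3.62% on control arrays 1 to 4. The groups overlapped widely, at 3.33% ± 0.66 and 3.45% ± 0.71 (SD, n = 4 each). The 3 lowest shares were those of knockout 1, knockout 4 and control 3, at 2.40% to 2.87%, under the 3.62% to 4.12% of the other 5. No interval is given because bead signals are not counts, and the number of arrays limits the precision.

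Probes of the same gene could differ, and they did so in sign about as often as over all genes. Of the 15 genes with several probes, 10 had at least 2 kept ones, 22 probes in all. The gap between the highest and lowest log2 difference of knockout minus control within a gene was 0.50 at the median, against 0.29 over all 1301 genes with several kept probes. The probes pointed in opposite directions for 4 of the 10 genes (40%), against 38.2% overall. Rps9 had the widest gap, 1.63. Its brighter probe read between 13.57 and 14.02 on all 8 arrays and differed by 0.00, while its dimmer probe read 8.51, 9.11, 7.68 and 7.39 on the knockout and 11.10, 9.89, 5.83 and 12.40 on the control arrays and differed by -1.63 (SE 1.21). The dimmer probe was low on control 3 and high on controls 1 and 4, so the control values spanned those of the knockout. After Rps9 came Rplp0, with a gap of 0.87, Rpl31 with 0.80, Rpl23 with 0.63 and Rpl7l1 with 0.57.

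At the median, gaps in level were larger than gaps in difference, though not for Rplp0 (0.22 against 0.87), and level compares probes, not transcripts. The mean levels of probes of a gene lay 2.67 units apart at the median, against 1.70 over all genes with several kept probes. They lay furthest apart for Rps24 (4.86), Rps9 (4.79), Rpl23 (4.78), Rpl38 (4.57) and Rps3 (2.95). The bright Rpl38 probe read between 13.93 and 14.02 on all arrays, with no fall on the 3 arrays. Its dim probe read 6.43, 10.49, 10.42 and 9.49 on the knockout and 10.59, 9.99, 7.82 and 10.03 on the control arrays, so that it lay 2.39 units lower on the mean of the 3 arrays. Rps24 went the other way: the bright probe differed by -0.09 between the 3 and the 5 arrays and the dim one by 1.13. Rpl31, a large subunit protein, had 1 probe 2.91 units lower and 1 probe 0.36 higher on the 3 arrays. For all 10 genes the gap between probes in this measure was 1.47 at the median, against 0.98 over all genes with several kept probes. Its sign was opposite between probes for 4 of the 10 genes (40%), against 46.4% of all such genes.

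**Figure D5:**
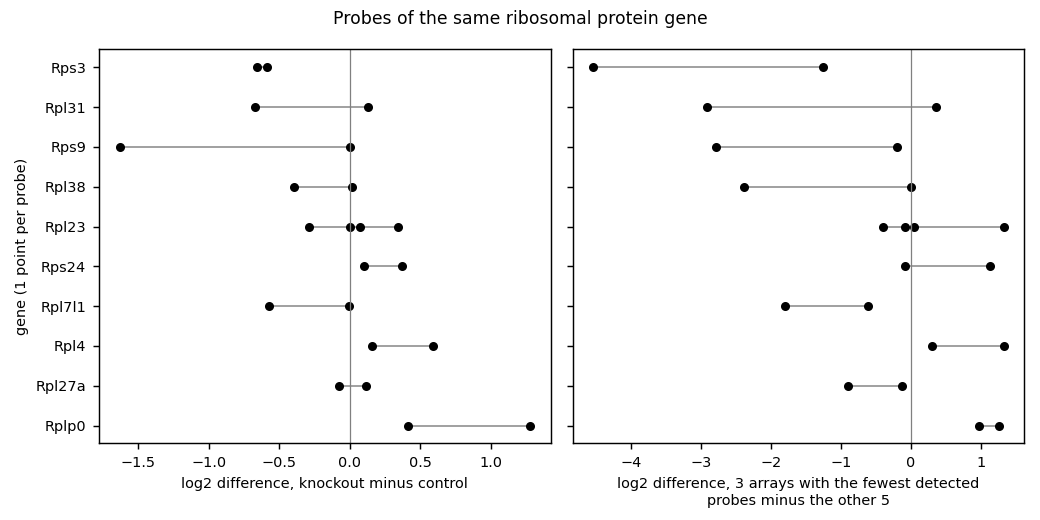
Log2 differences of each kept probe (points) of the 10 ribosomal protein genes with several, joined by gene, for knockout minus control (left) and for the 3 arrays with the fewest detected probes minus the other 5 (right). Probes of 1 gene lie up to 1.63 apart on the left, for Rps9, and 3.29 apart on the right, for Rps3.

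Other genes of translation were read from lists named for their roles, 1 probe per gene. Of 15 kept translation elongation and TOP-regulated genes, 0 passed the test, 6 had positive and 9 negative differences, and the median was -0.10. The smallest p in that list belonged to the initiation helicase Eif4a2 (-0.21, SE 0.12), followed by Fau (-1.04, SE 0.66), Btf3 (-0.83, SE 0.81), a subunit of the nascent chain complex, and the initiation factor subunit Eif3f (0.07, SE 0.10). Fau, which encodes the small subunit protein eS30 fused to a ubiquitin-like protein, read 10.26, 12.06, 11.50 and 10.38 on the knockout and 12.84, 12.24, 10.15 and 13.11 on the control arrays. Its 3 lowest values came from the same arrays as those of Rps3.

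Ribosome biogenesis genes, which process ribosomal RNA and assemble the subunits, had 36 kept members, of which 0 passed, 23 had positive and 13 negative differences, with a median of 0.08. Bop1, needed to mature the large subunit RNA, differed by 0.50 (SE 0.32), and the small subunit assembly factors Wdr75, Utp4 and Heatr1 by 0.34, 0.36 and 0.25. Among 13 kept genes of mTOR, Myc and translation control, 0 passed and the median was -0.11. Tsc2, a brake on mTOR, had the smallest p there, with 11.44 ± 0.36 on the knockout arrays and 10.48 ± 0.50 in the controls (SD, n = 4 each, limma adjusted p = 0.342), followed by Maf1 (-0.17), Akt1s1 (-1.13) and Eif4e (0.45). Myc was above background on no array.

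Mitochondrial ribosomal proteins, which build the separate ribosome of that organelle, had 65 kept members. Of these 0 passed, 40 had positive and 25 negative differences, and the median was 0.09. Mrps17 averaged 11.79 ± 0.17 on the knockout arrays and 11.24 ± 0.22 in the controls (SD, n = 4 each, limma adjusted p = 0.332), and Mrpl27, Mrpl18 and Mrps34 differed by 0.36, 0.46 and 0.52. Their median within-group SD was 0.48, under the 0.83 of the 59 cytosolic genes, and the 3 arrays lay lower by more than 1 unit for 19 of 65, against 26 of 59 cytosolic genes.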

How the data were processed

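Total RNA of 8 samples was hybridised to 1-colour Illumina MouseRef-8 v2.0 arrays. The main deposited table pairs a linear, unnormalised intensity per probe and array with a detection p-value set against negative-control beads, per the file headers. In another deposited table the intensity was quantile normalised by the authors, per the labels' protocols. The submitters' processing notes name GenomeStudio 3. Symbols came from the platform annotation (23978 probes with 1 symbol, 0 with several, 1719 unnamed), and all 84 member probes matched RefSeq by Entrez number, with 0 symbols changed. Groups came from titles and genotypes.

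Normalisation used neqc (limma 3.58.1, R 4.3.3), that is normexp background correction with an offset of 16, which shrinks differences of dim probes, then quantile normalisation and log2. Knockout and control were compared by lmFit and eBayes with an intensity trend over the 9433 kept probes, without block or covariate, at an adjusted p under 0.05. The test was checked on simulated data in which every probe varied independently of the others. Shifts that the probes of an array share were not simulated, so that check does not cover them. Log2 signals of the arrays correlated at 0.874 to 0.995, and 0 pairs were identical. Neither table gives chips or scan dates, so no such batch could be tested. Members and lists were chosen with earlier results of these data known. Named genes are, with 1 probe per gene (the brightest kept), the 6 highest and 6 lowest differences, the 5 widest and 5 narrowest within-group SDs, the 5 widest gaps between probes in difference and in level, the 5 brightest and 5 dimmest, the paralogs, stalk, reference, ubiquitin-fusion and Mdm2-binding genes, members above background on no array, and up to 4 members of other lists with the smallest p. Any further gene was picked with its values in view.

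Alternatives changed the background correction (none, or an offset of 50), the normalisation (median scaling, cyclic loess, or the authors' values) and the filter (none, or a detection p under 0.01 on every array). Others changed the variance model (no trend, robust, array weights, replicate block), the threshold (0.01), the probes (1 per gene) and the arrays (each left out). A covariate of detected probes and the removal of the 3 arrays with the fewest were chosen after seeing the data.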

Additional observations from a re-analysis of the deposited data

Results flagged for a closer look

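In 15 of 76 groups of 4 arrays tested, 1 array lay further from the other 3 than Dixon's 95% limit allows, where chance flags about 1 in 20. Probes share their arrays, so these are not independent. Several of the genes were named for a wide spread or difference in these same values, so the count cannot be set against 1 in 20. Control 3 accounts for 12. It had 6760 detected probes against 9490 to 9961 on the other controls, and a member median level of 10.11 against 12.42 to 12.61. It was low for Rps3 (5.91), Rps13 (7.33), Rpl36al (7.37), Rplp1 (9.43), Rps19 (10.06), Rpl31 (10.22), Rpl22l1 (11.67) and Rps27l (13.53). It was high for Rpl39l (8.46) and Rpsa (7.34). The other controls read 11.72 to 12.75 for Rps3 and 5.71 to 5.82 for Rpsa.

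Control 4 was low for Rpl3 (13.92), by 0.11. Knockout 1 was low for Rps27l (13.19 against 13.78 to 13.90) and high for Rps6 (7.76 against 6.76 to 6.81).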

How the results depend on the processing

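The count of member probes past the threshold was 0 in all 8-array fits except 3. It was 1 with median scaling (Rpl39l, lower, adjusted p = 0.0147, 108 of all probes called) and 4 with the covariate of detected probes, chosen after seeing the data (Rpl13a and Rplp0 higher, Rpl39l and Rps16 lower, 670 called in all). With array weights it was 22, 7 higher and 15 lower, against 3632 of all probes (38.5%). Those weights ran from 0.108 to 36.8 and their estimation stopped before it converged. Leaving out 1 array gave 0 to 1, the 1 being Rplp0 without control 3 (adjusted p = 0.0428). With the 3 arrays of fewest detected probes removed, a choice made after seeing the data, it was 1 (Rpl39l), and 0 when the other 5 were normalised and filtered anew (115 of 9098 called), since Rpl39l was then not kept. The count of probes whose groups do not overlap was 2 with median scaling (7.39% of all probes), 2 with cyclic loess (6.19%), 2 without the filter (4.12%), 0 with the stricter filter (5.02%) and 1 to 7 with 1 array left out. The 7 came without control 3, as 9.86% of member probes against 20.2% of all, and without those 3 arrays there were 16, or 22.5% against 30.2%. The median within-group SD was 0.49 with the stricter filter and 0.22 without those 3 arrays. The median gap between probes ran from 0.26 to 0.92 with 1 array left out. The cause of these shifts was not tested. The median log2 difference stayed between -0.24 and 0.02. Median scaling moved the median of all probes from 0.03 to -0.10. Of 721 values for 35 named genes under the alternatives, 17 newly passed the threshold, 44 in 16 genes had the opposite sign, and 45 in 15 genes lay over 0.5 from the main value. Of those with the opposite sign only Rpl41 with array weights passed (0.0944, adjusted p = 0.0410). Array weights also turned Rps2 (-0.21), Rpl38 (-0.0515), Rps9 (0.0201), Rpl23 (-0.0696), Rps24 (-0.0629), Rps27l (0.0147) and Rps15a (-0.0557). Median scaling turned Rps2 (-0.13), Rps20 (0.26), Rps9 (0.23), Rps27l (0.0562), Rpsa (-0.0225), Rps15a (-0.18) and Rpl41 (0.29). The covariate turned Rps9 (0.0145), Rps15a (-0.0364) and Rpl41 (0.0024). Removal of the 3 arrays turned Rps2 (-0.62), Rpl38 (-0.0223), Rps9 (0.0052), Rps15a (-0.0251) and Rpl41 (0.0328). With 1 array left out 11 genes took both signs: Rpl22l1 from -0.0401 to 0.24, Rpl30 from -0.44 to 0.84, Rpl31 from -1.59 to 0.0245, Rpl3l from -0.66 to 0.16, Rpl41 from -0.0399 to 0.0306 and Rps15a from -0.35 to 0.47. Rps2 ran from -0.24 to 0.68, Rps27l from -0.21 to 0.0392, Rps3 from -2.13 to 0.14, Rps6 from -0.61 to 0.57 and Rps9 from -0.0721 to 0.0774.

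With the replicate number as a block, 0 member probes passed, against 3 of all probes, and the median log2 difference was -0.08. Same-numbered arrays correlated at -0.66, 0.60, -0.75 and -0.82 in their deviations. The sign was positive only where neither array was among the 3 with the fewest detected probes. These values therefore cannot settle whether the numbers pair the samples. Signal over background limits 13 of the 84 probes.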
